A study of Arabidopsis thaliana with 12 samples.

Results

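The Zeocin response of wild type Arabidopsis thaliana seedlings was followed across all nuclear genes, by setting 3 libraries of treated Col-0 seedlings (WT Zeocin) against 3 libraries of mock-treated Col-0 seedlings (WT mock), 6 of the 12 libraries of the study. Members were all genes with identifiers from chromosomes 1 to 5. The count tables held 32548 of them among 34262 features, and 19394 had enough counts to be tested. All seedlings were 6 days old and had grown on MS medium. Treated seedlings were kept for 6 h with 20 µM Zeocin, and mock seedlings without it. Whole seedlings were used, so roots and shoots were read together, and there was 1 dose and 1 time. The remaining 6 libraries came from pot1b mutant seedlings under the same treatments, with no allele given in the labels, and entered the fit and the test of the difference between genotypes. The labels do not say that replicates were separate cultures, so p-values cover only how far these samples lie apart, and that spread may be technical.

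Zeocin is a bleomycin-type drug that breaks both strands of DNA. In plants, broken ends are read by the kinases ATM and ATR, which phosphorylate the transcription factor SOG1, a plant-specific NAC protein. SOG1 then switches on genes that repair DNA and hold the cell cycle. Seedlings hold dividing cells in the root and shoot tips, while most of their other cells no longer divide.

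Library totals in the WT ran from 9607269 to 24587168 counts, of which nuclear genes took 40.5% to 45.2% (3961261 to 10490315 counts), so a single count in a gene weighs least in the deepest libraries. WT Zeocin replicate 1 stood apart from the rest. It had the highest nuclear share (45.2%), the highest scaling factor (1.15) and the lowest correlations with its fellow replicates (Pearson r 0.969 and 0.976 across genes, against 0.984 to 0.988 for the other pairs within a group). Counts of called genes are therefore also given without it. Mitochondrial genes took 0.745% ± 0.00643 of the counts in WT mock and 0.632% ± 0.0289 in WT Zeocin (SD, n = 3 each), ranges that did not overlap (exact two-sided permutation p = 0.1, the smallest that 3 libraries against 3 can give).

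Zeocin changed the level of 1167 nuclear genes in the WT, which was 6.02% of those tested. A gene was called when its adjusted p was under 0.05 (edgeR's quasi-likelihood test, Benjamini-Hochberg over all tested features). Of these, 653 rose (3.37% of the tested genes) and 514 fell (2.65%). The rises were larger than the falls: the median log2 change was 0.85 among risen genes and -0.43 among fallen genes, beside -0.0030 over all tested genes. At least 2-fold changes numbered 279 up (1.44%) and 30 down (0.155%), and at least 8-fold changes 55 up. No fall reached 8-fold, by the same edgeR calls. Of the 653 risen genes, 137 had a mock mean under 1 CPM (library-size scaled counts, with TMM factors). So did 7 of the 514 fallen genes and 2001 of all 19394 tested genes. Genes low in mock pass the count filter more easily when they are high in another group, which favours rises among them. Without WT Zeocin replicate 1, 754 genes rose and 733 fell, and without WT mock replicates 1, 2 or 3, 470, 532 and 481 rose and 235, 330 and 285 fell. The number of genes that rose at least 2-fold moved less, from 255 to 283 over all single libraries left out. The 30 falls of at least 2-fold became 16 without WT mock replicate 1 and 19 without WT mock replicate 3.

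**Figure D1:**
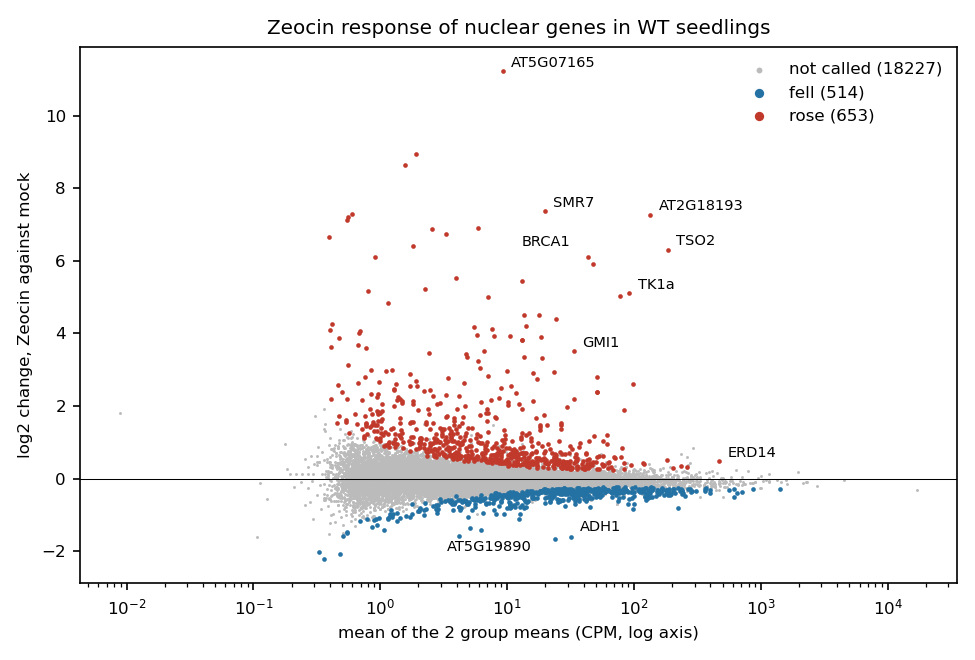
Log2 change under Zeocin against the mean level in CPM (log axis) for the 19394 tested nuclear genes in WT seedlings, 1 point per gene, red for genes that rose and blue for genes that fell. The 653 risen genes reach far above the grey cloud, while the 514 fallen genes stay close under it.

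Risen genes were spread over the genome. On each chromosome 2.82% to 3.62% of the tested genes rose. Protein-coding genes made up 624 of the risen and 499 of the fallen genes. Long non-coding RNAs had 27 risen (3.28%) and 10 fallen (1.22%) members of 822 tested, beside 3.37% and 2.65% of all tested genes. Whether counting used strand is not given, so reads of overlapping genes may not be separated, and 438 of the risen and 372 of the fallen genes overlapped no other listed gene.

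The 15 largest rises were taken among protein-coding genes with at least 5 CPM whose mock and Zeocin libraries did not overlap. They included repair genes, cell-cycle inhibitors and genes outside those groups. AT5G07165, annotated as an uncharacterized protein, had 0 counts in every mock library and stood at 19.2, 20.6 and 15.9 CPM in the Zeocin libraries. Its level was at least 344-fold higher with Zeocin, taking 3 counts over the mock group as the floor. SMR7 (AT3G27630), an inhibitor of cyclin-dependent kinases that holds dividing cells, read 0.277, 0.316 and 0.143 CPM under mock and 32.4, 37.9 and 48.2 CPM under Zeocin. It rose by 7.36 on the log2 scale (SE 0.29, edgeR adjusted p = 1.1e-09). AT2G18193, an ATPase-type gene, went from 1.82, 2.63 and 1.09 CPM to 282, 268 and 251 CPM. By that choice the treated libraries of each of these genes lay above all mock libraries. Groups did not overlap in 649 of the 653 risen genes and in 512 of the 514 fallen genes. These genes were called from the same libraries, so little overlap follows from the call and gives no further support.

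SMR5 (AT1G07500), a relative of SMR7, had 2 counts over the mock libraries and 257 over the Zeocin libraries, a ratio of 140 (exact 95% interval 38.5 to 1165, counting error only). Reads of SMR5 may be shared with the overlapping gene AT1G07510, whose own log2 change was 0.60. KCS17, a fatty acid elongase gene, had 3 and 339 counts, a ratio of 123 (41.9 to 601). DRP4C, a dynamin-related gene, had 2 and 190 counts, a ratio of 104 (28.3 to 863). AT1G20750, annotated as a RAD3-like helicase, and AT4G25330, a SAWADEE protein gene, were at least 70.6-fold and 57.5-fold higher, both from 0 mock counts. In all, 16 risen genes had 0 to 3 counts over the 3 mock libraries, 7 of them 0. Only 17 of all 19394 tested nuclear genes had so few mock counts. The count filter keeps such genes only through their counts in other groups, so a high share of rises among them was built in.

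Among the other large rises, NAC103, a transcription factor gene of the same family as SOG1, read 0.238, 0.105 and 0.095 CPM under mock and 7.94, 7.08 and 8.13 CPM under Zeocin (log2 5.52, SE 0.27). AT4G22960, a gene of the FAM63A type, rose by 6.90 (SE 0.26). TRFL10, a TRF-like gene, rose by 4.52 (SE 0.20), from 1.43, 1.26 and 0.713 to 32.8, 24.3 and 21.4 CPM. Of the 55 genes that rose at least 8-fold, 18 belonged to one of the 25 gene lists used here, and 37 to none. Those 37 included AT5G49110, annotated as like Fanconi anemia group I (log2 3.51, SE 0.18), and GEX1, a gamete-expressed gene (4.12, SE 0.18). These were picked after their values were seen.

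**Figure D2:**
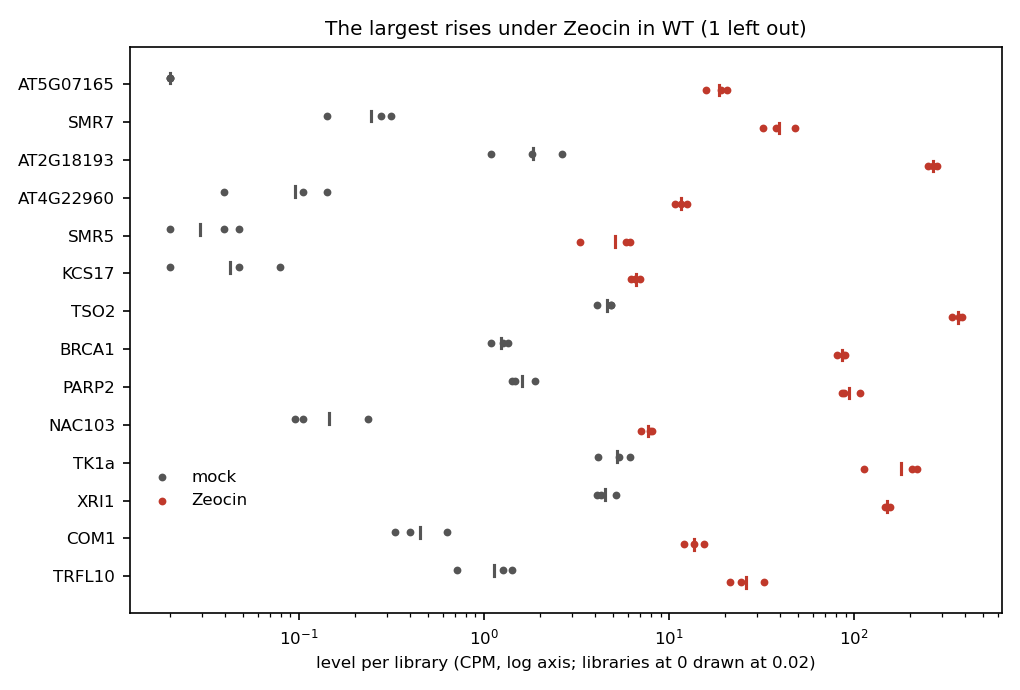
Level per library in CPM (log axis) for 14 of the 15 largest rises, with grey points for the 3 WT mock libraries, red points for the 3 WT Zeocin libraries and short lines for group means. Libraries with 0 counts are drawn at 0.02. The genes were picked among those whose groups do not overlap, so treated libraries sit to the right of every mock library by that rule. TK1a (113, 205 and 219 CPM) has the widest treated spread among the genes above 100 CPM.

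SOG1 binds the palindrome CTTNNNNNNNAAG, which reads the same on both strands. It was searched in a window of 300 bases, from 250 before to 50 after each gene's start, in 27443 protein-coding genes of RefSeq TAIR10.1. It occurred in 11.8% of all promoters and in 10.6% of those of tested genes that were not called. Among genes that rose under 2-fold it was in 16.4% (59 of 360), among those that rose 2- to 4-fold in 22.9% (35 of 153), among those that rose 4- to 8-fold in 31.6% (18 of 57), and among those that rose at least 8-fold in 38.9% (21 of 54). Promoters of fallen genes held it in 11.6% (58 of 499). The share was thus higher in each step of larger rise. A match is a description of the letters and not a site of binding, and no test was made.

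Of the 15 largest rises, 7 held the palindrome in this window. It is shown for the 4 largest of these, as the largest rises in which these letters occur. The other 8 of the 15, AT5G07165 among them, did not hold it. Each stretch is given 5′ to 3′ on the gene's own strand, in TAIR10.1 coordinates, with the palindrome in capitals. SMR7 lies on the minus strand and its stretch is chr3:10231568-10231650. AT2G18193 is on the minus strand, with chr2:7919366-7919458. SMR5 is on the minus strand, with chr1:2305032-2305103. PARP2 is on the plus strand, with chr4:1049630-1049722. The palindrome shown began 43, 73, 32 and 96 bases before the gene start, in that order. SMR7 and SMR5 each held a second one in the window, which is not printed.
SMR7: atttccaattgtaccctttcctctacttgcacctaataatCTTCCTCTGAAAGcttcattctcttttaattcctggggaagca
AT2G18193: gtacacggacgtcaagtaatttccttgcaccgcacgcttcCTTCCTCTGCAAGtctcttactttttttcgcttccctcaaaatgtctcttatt
SMR5: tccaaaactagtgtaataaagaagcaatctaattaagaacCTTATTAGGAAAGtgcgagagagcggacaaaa
PARP2: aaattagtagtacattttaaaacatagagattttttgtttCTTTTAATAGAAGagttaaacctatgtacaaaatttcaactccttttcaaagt

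The palindrome was not in the window of BRCA1, TSO2, TK1a, XRI1, KCS17, TRFL10, AT4G22960 or AT5G07165. Other motifs were searched in the same way. The W box TTGACC, the letters that WRKY factors bind, was in 19.0% of promoters of genes that rose 2- to 8-fold and in 14.8% of those that rose at least 8-fold, against 14.2% of all promoters. The E2F site TTTCCCGC was in 3.70% (2 of 54) of promoters of genes that rose at least 8-fold and in 0.798% of all promoters. The second E2F form TTTGGCGC was also in 3.70% (2 of 54), and in 0.434% of all. The MSA core AACGG, found in genes of mitosis, was in 24.1% of the genes that rose at least 8-fold and in 24.7% of all promoters. The G box CACGTG was in 14.8% (8 of 54) and in 7.68% of all promoters. The telo-box AAACCCTA was in 3.70% and in 6.22% of all. The evening element AAATATCT was in 1.85% and in 5.65% of all. Both strands were searched for each.

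**Figure D3:**
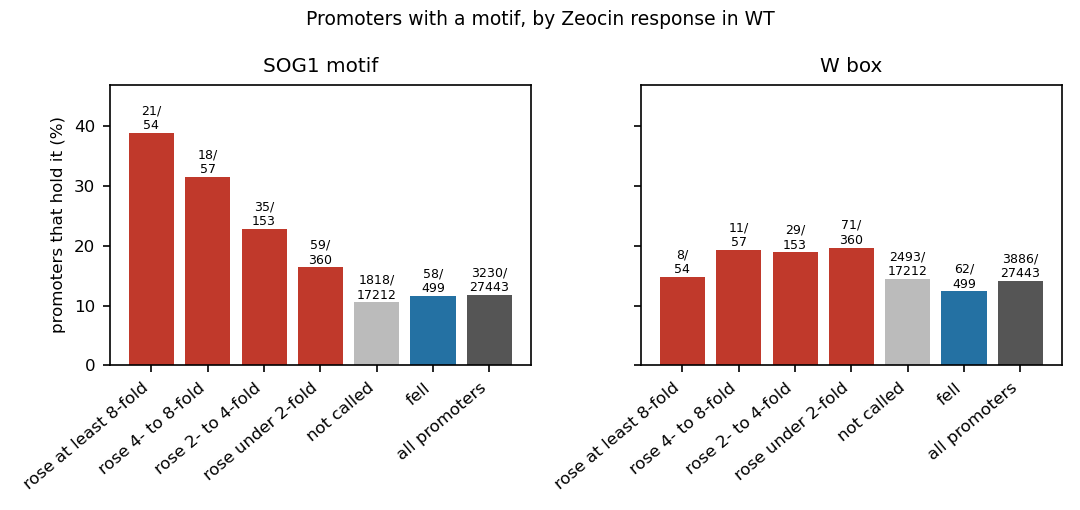
Share of promoters (%) that hold the SOG1 palindrome (left) or the W box (right), by response class in the WT, with the number of promoters above each bar. The SOG1 bars fall from 38.9% in the genes that rose at least 8-fold to 16.4% in those that rose under 2-fold, while W box bars stay between 12.4% and 19.7%.

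Of 12 tested genes that sense damage and set the checkpoint, 3 rose, 1 fell and 8 were not called (list median 0.10), beside 6.02% called among all tested genes. For this and every list below, the shares over all tested genes were 3.37% risen and 2.65% fallen. RAD17, which loads the checkpoint clamp, read 1.43, 1.47 and 1.05 CPM under mock and 20.13, 18.4 and 20.4 CPM under Zeocin (log2 3.92, SE 0.13), with reads that may be shared with an overlapping gene. ANAC044, a NAC factor that acts below SOG1 in the stop of the cell cycle, rose by 2.96 (SE 0.38) from 0.238, 0.211 and 0.285 to 1.71, 1.63 and 2.62 CPM. WEE1, a kinase that restrains cyclin-dependent kinases, rose by 1.49 (SE 0.40), but lost its call without some single libraries (adjusted p up to 0.149). HTA5, a histone H2A.X gene, fell by 0.42 (SE 0.09). SOG1 itself stood at 7.01, 6.32 and 7.41 CPM under mock and 7.60, 7.48 and 6.47 CPM under Zeocin, and the groups overlapped.

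Homologous recombination copies a broken stretch from an intact sister molecule. Of 24 tested genes of this pathway 8 rose and 16 were not called (median 0.26). BRCA1, which marks the break for recombination, stood at 1.35, 1.26 and 1.09 CPM in the mock libraries and at 88.8, 87.6 and 81.3 CPM in the treated ones. COM1 (AT3G52115), which helps to trim the broken ends, rose by 5.02 (SE 0.19) to 15.4, 13.6 and 12.1 CPM. MND1, known from meiosis, rose by 3.43 (SE 0.21), and its partner AHP2, which overlaps another gene, rose by 1.25 (SE 0.17). XRI1, an X-ray induced gene needed in meiosis, went from 5.19, 4.11 and 4.28 to 146, 151 and 156 CPM (log2 5.03, SE 0.11). RAD54, a motor protein of recombination, rose by 1.80 (SE 0.19). EME1A, a subunit of a junction-cutting nuclease, rose by 1.12 (SE 0.31), and lost its call without some single libraries (adjusted p up to 0.149). The 16 genes that were not called ranged from -0.31 (RAD52-1) to 0.43 (SEND1).

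The end-joining list had 4 of 13 tested genes up (median 0.22). PARP2, which attaches ADP-ribose chains at breaks, stood at 1.43, 1.90 and 1.47 CPM and then at 108, 87.8 and 85.9 CPM. PARP1 went from 3.21, 4.42 and 3.04 to 34.7, 34.5 and 32.7 CPM (log2 3.31, SE 0.11). PARG1 (AT2G31870), which removes such chains, rose by 1.92 (SE 0.17). LIG4, the ligase of end joining, rose by 0.70 (SE 0.13), with reads that may be shared with an overlapping gene.

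Of 14 tested genes for nucleotide supply and for RPA, the protein that coats single strands, 6 rose and 8 were not called (median 0.17). The risen genes were 3 of nucleotide supply and 3 RPA subunits, while RNR2A, TK1B and DUT1 of nucleotide supply were not called (log2 -0.07, 0.17 and -0.16). TSO2, the small subunit of ribonucleotide reductase, went from 4.87, 4.84 and 4.09 to 339, 368 and 385 CPM, with reads that may be shared with the overlapping AT3G27050, which was not called. Its large subunit RNR1 went from 12.1, 12.1 and 12 to 47.4, 46.4 and 48.4 CPM (log2 1.97, SE 0.07). TK1a, a thymidine kinase, rose by 5.11 (SE 0.32, edgeR adjusted p = 1.7e-05). Its treated libraries read 113, 205 and 219 CPM, with the lowest in WT Zeocin replicate 1. The RPA large subunits did not move alike: RPA1E (AT4G19130) rose by 3.96 (SE 0.18), RPA1A by 1.04 (SE 0.12) and RPA1C by 0.53 (SE 0.11).

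Genes of cohesin, the ring that holds sister chromatids, and of the SMC5/6 complex had 3 of 16 tested members up (median 0.08). SYN2, a cohesin subunit known for its response to breaks, read 2.14, 1.90 and 2.47 CPM and then 47.4, 45.0 and 47.9 CPM (log2 4.4, SE 0.10). NSE4A, a subunit of SMC5/6, rose by 2.18 (SE 0.13). GMI1, named for its response to gamma rays and mitomycin C, rose by 3.51 (SE 0.09) to 64.3, 60.2 and 60.5 CPM. The excision, mismatch and translesion repair genes had 0 of 23 called by any of edgeR, DESeq2 and limma-voom, while 3 had an unadjusted p under 0.05 (list median 0.16).

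Without WT Zeocin replicate 1 the counts of risen genes were again 8 for recombination, 4 for end joining, 6 for nucleotide supply and 3 for cohesin. The SOG1 palindrome was in the promoter window of 3 of 8 risen genes of recombination and 3 of 4 of end joining. It was in 1 of 6 of nucleotide supply and 0 of 3 of cohesin. Holders included RAD54, COM1, LIG4, PARP2, PARG1 and RNR1. Of the members that did not rise, 1 of 16, 3 of 9, 0 of 8 and 1 of 13 held it, in the same order.

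CDK inhibitors had 6 of 15 tested genes up (median 0.16). Besides SMR5 and SMR7, SMR4 rose by 2.64 (SE 0.47), KRP6 by 1.68 (SE 0.18), SMR1 by 1.13 (SE 0.18) and SIM by 1.06 (SE 0.17). SMR1 and SIM overlap other genes. The members that were not called ran from -0.59 (KRP1) to 0.70 (KRP3). Of 31 tested genes of mitosis and cytokinesis, 1 rose (median 0.20), a share near the 3.37% of all tested genes. That gene was CYCB1;1, a B-type cyclin that plants also make after DNA damage, at 1.43, 1.37 and 1.52 CPM under mock and 24.0, 28.7 and 27.4 CPM under Zeocin (log2 4.20, SE 0.16). Its relative CYCB1;2 read 3.84, 4.53 and 3.94 CPM and then 4.18, 3.99 and 5.40 CPM, which overlap. Of the 31 genes of mitosis and cytokinesis, 24 had a log2 change above 0 and 8 had an unadjusted edgeR p under 0.05. Genes of S phase and replication had 0 of 25 called by any of edgeR, DESeq2 and limma-voom, while 4 had an unadjusted p under 0.05 (list median 0.08).

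Histone genes, which are read mainly in S phase, had 3 of 20 tested members down (median -0.07): HTA5, HTA7 (log2 -0.44, SE 0.13) and HTB4 (log2 -0.27, SE 0.08). Without WT Zeocin replicate 1 the count was 1, and HTA7 and HTB4 each lost their call without 9 of the 12 libraries, left out in turn. In the list of RNA silencing and DNA methylation, 2 of 27 rose (median 0.09), beside 3.37% of all tested genes. AGO2, a small-RNA effector known from antiviral defence and break repair, read 5.39, 2.74 and 4.75 CPM and then 30.3, 29.7 and 30.7 CPM (log2 2.73, SE 0.13). RDR2, which makes double-stranded RNA, rose by 0.59 (SE 0.15), a call lost without some single libraries (adjusted p up to 0.124). Outside the list, DRM1, a domains-rearranged DNA methylase gene, had 0 mock counts and was at least 14.6-fold higher under Zeocin. It was picked after its value was seen.

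Stem cell and regeneration genes had 1 of 19 down (median -0.07), beside 2.65% of all tested genes. It was RAP2.6 (log2 -0.29, SE 0.09), a call lost without 10 of the 12 libraries. ERF115, which drives the replacement of dead stem cells, read 0.0792, 0.421 and 0.238 CPM under mock and 0.411, 0.450 and 0.107 CPM under Zeocin, levels near the floor of this depth. Cell death and nuclease genes had 0 of 21 called by any of edgeR, DESeq2 and limma-voom, while 3 had an unadjusted p under 0.05 (list median 0.08). Without WT Zeocin replicate 1, 1 gene of this list fell. SAG12 had 0 counts in all 6 libraries. In whole seedlings, fewer cells of a type and less RNA per cell cannot be told apart.

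**Figure D4:**
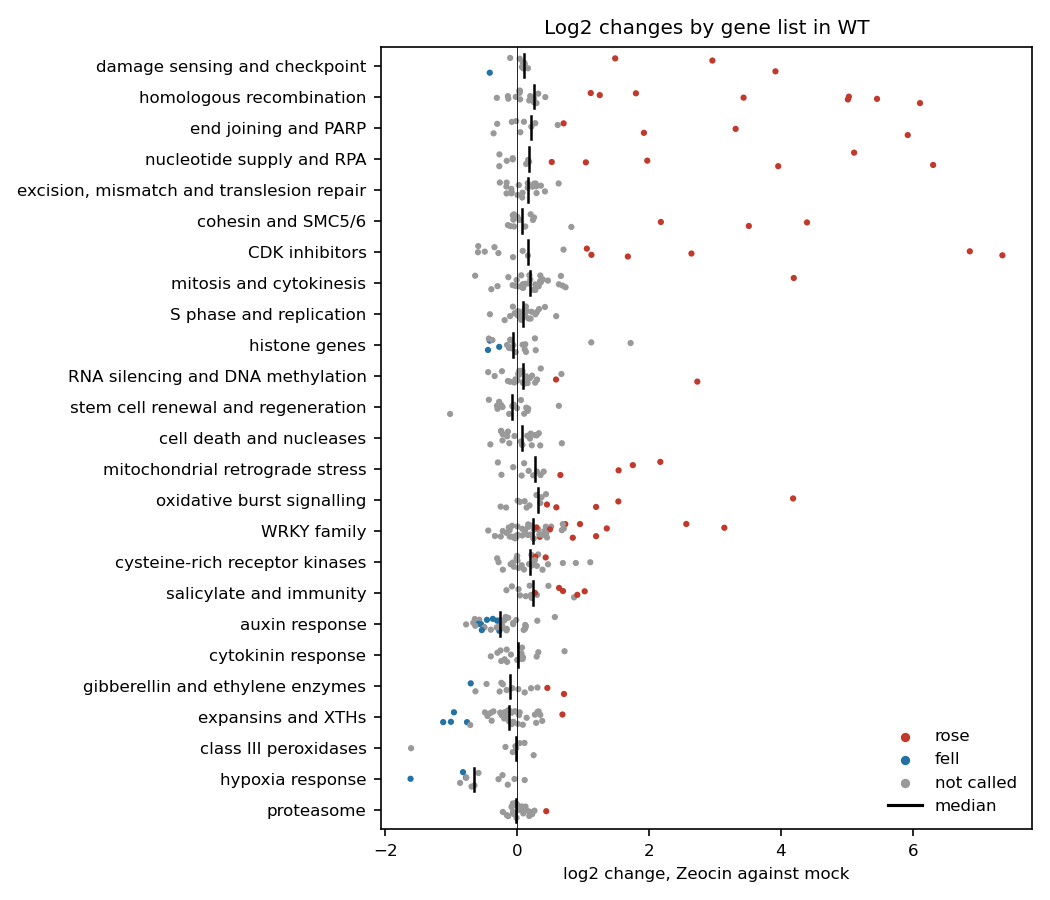
Log2 change of each tested gene in the 25 gene lists, 1 point per gene, with red for rose, blue for fell, grey for not called, and a black line at the list's median. Lists of repair, nucleotide supply and CDK inhibitors have medians between 0.08 and 0.26, with single genes out to 7.36. The auxin and hypoxia lists have medians of -0.26 and -0.65.

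Some genes of stress and defence lists rose as well, and most members of each list were not called. Of 16 tested genes of oxidative burst signalling 5 rose (median 0.32). OXI1 (AT3G25250), a kinase in hydrogen peroxide signalling, read 0.475, 0.948 and 0.475 CPM under mock and 11.5, 9.61 and 10.06 CPM under Zeocin. ZAT11, a zinc-finger repressor gene, rose by 1.53 (SE 0.20), MPK3, a stress MAP kinase that overlaps another gene, by 0.59 (SE 0.07) and ZAT10 by 0.45 (SE 0.08). Mitochondrial retrograde genes, which answer signals from stressed mitochondria, had 4 of 14 up (median 0.27). ANAC053, a NAC factor, went from 14.1, 13.3 and 13.2 to 38.4, 39.1 and 40.8 CPM (log2 1.54, SE 0.08), UPOX (AT2G21640) rose by 2.17 (SE 0.31), OM66 (AT3G50930) by 1.75 (SE 0.16) and DIC1 by 0.66 (SE 0.11). AOX1A, the alternative oxidase gene often used as a marker of this route, was not called, at 14.4, 14.2 and 14 CPM under mock and 14.9, 16.8 and 18.7 CPM under Zeocin, which do not overlap (log2 0.24, SE 0.09). Without WT Zeocin replicate 1, 5 retrograde genes rose and 1 fell, and 6 oxidative burst genes rose. Proteasome genes had 1 of 26 up, a share near the 3.37% of all tested genes. It was PAD1 (log2 0.44, SE 0.10). The count was 5 without WT Zeocin replicate 1, and PAD1 lost its call without WT mock replicate 1 (adjusted p = 0.0528).

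The WRKY family of defence factors had 11 of 51 tested members up (median 0.25). WRKY25 went from 38.9, 37.2 and 35.0 to 101, 77.9 and 76.5 CPM (log2 1.2, SE 0.09). WRKY59 rose by 3.14 (SE 0.50) and WRKY50 by 2.57 (SE 0.29), both from under 1 CPM. WRKY33, WRKY72, WRKY70, WRKY48, WRKY40, WRKY51, WRKY17 and WRKY11 rose by 0.29 to 1.36, and WRKY33 and WRKY40 overlap other genes. The count of risen WRKY genes was 7 without WT Zeocin replicate 1, where 2 others fell, and 6 without WT mock replicate 1. WRKY11, WRKY17, WRKY48, WRKY51 and WRKY70 each lost their call without at least 1 library (adjusted p up to 0.299).

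Salicylate and immunity genes had 5 of 16 up (median 0.24). SAG101, a partner of the immune hub EDS1, went from 16, 18.7 and 16.1 to 40.8, 31.0 and 30.7 CPM. CBP60G, a factor that switches on salicylate synthesis, rose by 0.91 (SE 0.10), NUDT7, which dampens immune signalling, by 0.70 (SE 0.08), EDS5, a salicylate exporter gene, by 0.64 (SE 0.16) and ADR1-L1, a helper immune receptor gene, by 0.27 (SE 0.07). EDS5 and ADR1-L1 overlap other genes and lost their calls without some single libraries (adjusted p up to 0.114). PR1, a late marker of salicylate defence, read 0.119, 0 and 0.0475 CPM under mock and 0.274, 0 and 0 CPM under Zeocin, too low to test. Cysteine-rich receptor kinases had 2 of 26 up (median 0.20), beside 3.37% of all tested genes. They were CRK13 (0.43, SE 0.09) and CRK11 (0.28, SE 0.08). CRK11 overlaps another gene and lost its call without some single libraries (adjusted p up to 0.129).

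Of 38 tested auxin response genes, 7 fell and 31 were not called (median -0.26), the latter from -0.77 (IAA30) to 0.57 (IAA29). IAA2, an early auxin-responsive repressor gene, went from 156, 154 and 146 to 112, 102 and 98.2 CPM (log2 -0.55, SE 0.08, edgeR adjusted p = 5.0e-05). GH3.3, which ties auxin to amino acids, went from 53.0, 55.5 and 52.7 to 34.5, 38.8 and 37.7 CPM (-0.54, SE 0.08). IAA1 (-0.59), SAUR36 (-0.46), GH3.2 (-0.37), GH3.5 (-0.30) and IAA7 (-0.27) fell as well. The calls of IAA1, SAUR36, GH3.5 and IAA7 were each lost without at least 1 library (adjusted p up to 0.13), and the count was 7 without WT Zeocin replicate 1 (where 1 other rose), 4 without WT mock replicate 1 and 3 with only the 6 WT libraries. Cytokinin response genes had 0 of 18 called by any of edgeR, DESeq2 and limma-voom, while 1 had an unadjusted p under 0.05 (list median 0.02).

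Hypoxia genes, which serve fermentation when oxygen is short, had 3 of 13 down and a median of -0.65, the lowest of the 25 lists, with 1 of the 13 above 0. ADH1, alcohol dehydrogenase, read 46.9, 46.4 and 52.2 CPM under mock and 13.6, 17.6 and 16.2 CPM under Zeocin (log2 -1.62, SE 0.09). It overlaps AT1G77122, which was not called. HB1, a haemoglobin gene, fell by 0.82 (SE 0.13) and LBD41, a transcription factor gene, fell by 0.78 (SE 0.11). PDC1, which acts just before ADH1 in fermentation, read 0.991, 0.421 and 1.14 CPM and then 0.548, 0.281 and 0.696 CPM, and the groups overlapped.

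Genes that loosen the cell wall had 4 of 40 down and 1 up (median -0.12), beside 2.65% and 3.37% of all tested genes. EXLB1, an expansin-like gene, went from 9.59, 7.48 and 8.60 to 3.83, 4.33 and 5.14 CPM (log2 -0.96, SE 0.15). XTH19 fell by 1.00 (SE 0.20), EXPA10 fell by 0.76 (SE 0.19) and EXPA18 fell by 1.12 (SE 0.33), while XTH28 rose by 0.69 (SE 0.08). EXPA10 and EXPA18 lost their calls without at least 1 library (adjusted p up to 0.272), and EXPA18 overlaps another gene. Among enzymes of gibberellin and ethylene synthesis 2 of 14 rose and 1 fell (median -0.12). These were the ethylene genes ACS7 (0.71, SE 0.14), ACS6 (0.46, SE 0.12) and ACS2 (-0.70, SE 0.18). ACS2 and ACS6 lost their calls without some single libraries (adjusted p up to 0.0925). Class III peroxidases of the list had 0 of 8 called by any of edgeR, DESeq2 and limma-voom, while 2 had an unadjusted p under 0.05 (list median -0.02). Without WT Zeocin replicate 1, 1 of these peroxidases fell, 2 expansins and XTHs rose and 5 fell, and 2 ethylene or gibberellin genes fell.

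The largest falls among protein-coding genes with at least 5 CPM and groups that did not overlap were modest beside the rises. AT5G19890, a peroxidase gene outside the list above, went from 36.9, 38.3 and 32.9 to 13.3, 11.3 and 9.85 CPM (log2 -1.65, SE 0.12, edgeR adjusted p = 2.7e-09). AT1G30760, of the berberine bridge enzyme type, went from 5.55, 7.48 and 5.80 to 1.92, 1.97 and 2.25 CPM. AT2G05510 and GRP9, both glycine-rich protein genes, fell by 1.43 (SE 0.21) and 0.98 (SE 0.14). AT5G10580, which overlaps another gene, fell by 1.35 (SE 0.17), the dirigent gene DIR5 by 1.1 (SE 0.16) and AT5G15780 by 0.88 (SE 0.17). SDR4 fell by 1.05 (SE 0.16), and TI1, a trypsin inhibitor gene, and HB-12, a homeobox gene, fell by 0.98 each. NSP5, a nitrile specifier protein that acts on glucosinolates, went from 115, 147 and 118 to 65.8, 79.9 and 67.0 CPM (-0.83, SE 0.10). IMS2, annotated as an isopropylmalate synthase, fell by 0.88 (SE 0.14), and CLE2, a signal peptide gene, fell by 0.88 (SE 0.20), a call lost without 3 single libraries (adjusted p up to 0.0781).

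**Figure D5:**
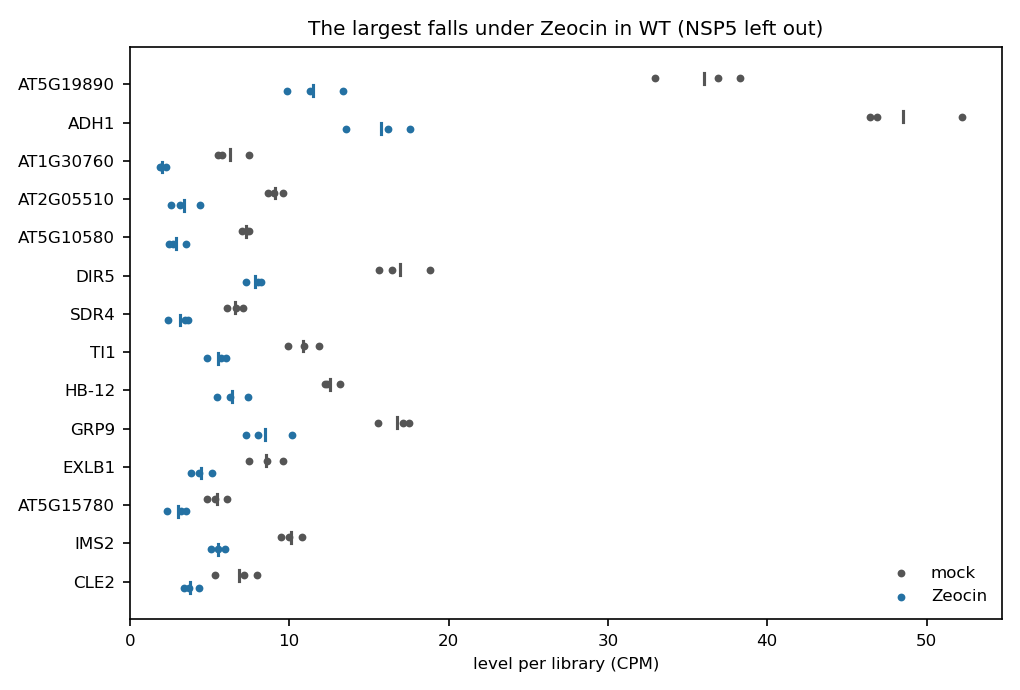
Level per library in CPM for 14 of the 15 largest falls, with grey points for WT mock, blue points for WT Zeocin and short lines for group means; NSP5 (65.8 to 147 CPM) is left out to keep the scale. Only genes whose groups do not overlap were picked, so the treated libraries lie to the left of the mock libraries by that rule. The largest gaps in CPM are those of ADH1 and AT5G19890.

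Among the 8 risen genes with the highest mean level, TSO2 and AT2G18193, described above, rose by 6.31 and 7.28, and the other 6 by 0.30 to 0.52. The 8 fallen genes with the highest level had log2 changes of -0.28 to -0.51. The highest of those that fell was ASN1, asparagine synthetase, a gene of sugar starvation and darkness, at 1561, 1538 and 1554 CPM under mock and 1154, 1333 and 1350.3 CPM under Zeocin (log2 -0.28, SE 0.08). STP1, a sugar carrier (-0.29), SEN1, a dark-induced gene (-0.38), BCB (-0.39), BGAL4 (-0.51), BGAL1 (-0.28), AT1G21400 (-0.32) and FDH, formate dehydrogenase (-0.32), followed. Of these, BGAL4 kept its call in every alternative that gave it a value, and ASN1, STP1, SEN1, BCB, BGAL1, AT1G21400 and FDH each lost it without at least 1 library (adjusted p up to 0.2). ASN1, STP1 and BGAL4 overlap other genes. Highest among those that rose was ERD14, a dehydrin, at 416, 383 and 380 CPM and then 628, 537 and 471 CPM (0.47, SE 0.10). AlaAT1, alanine aminotransferase (0.52), EXO (0.36), IGMT4 (0.31), PLA2A, a phospholipase (0.30), and PSAD-1 of photosystem I (0.39) rose too. EXO, IGMT4, PLA2A and PSAD-1 lost their calls without at least 1 library (adjusted p up to 0.107).

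Among RNAs that code for no protein, AT2G30362 went from 15.8, 18.1 and 15.5 to 91.2, 85.4 and 81.3 CPM (log2 2.39, SE 0.09). It overlaps SIP4, which rose by the same 2.39 (SE 0.09), so both may be counts of the same reads. AT2G08960 had 3 counts over the mock and 38 over the Zeocin libraries, a ratio of 13.8 (4.39 to 70.0), and AT1G09987 and AT2G09740 rose by 2.19 and 1.91. Their overlapping partners DREB19, AT1G80850 and RS31a rose by 2.56, 1.36 and 1.35. AT1G06577, with no overlapping gene, rose by 2.24 (SE 0.38). The falls of AT2G09675 (-1.16), AT5G44569 (-1.09) and the small nuclear RNA U2.3 (-0.87) also lie over other genes, and AT2G08960, AT2G09675 and AT5G44569 lost their calls without at least 1 library (adjusted p up to 0.229).

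Markers of cell types were checked beside these results. The summed level of 8 leaf mesophyll genes was 7757 to 8286 CPM under mock and 7401 to 8587 CPM under Zeocin, and that of 8 root meristem genes was 10.3 to 11.5 CPM and then 10.6 to 13.1 CPM. All 8 mesophyll genes but only 2 of the 8 root meristem genes were tested, and 0 were called in either list by edgeR (1 and 0 at an unadjusted p under 0.05). Root meristem markers WOX5, PLT1 and PLT2 were too low to test. Of 6 tested xylem genes 1 was called and 5 had an unadjusted edgeR p under 0.05 (list median 0.49). Of 6 tested phloem genes 2 were called. XCP1, a xylem protease gene that overlaps another, rose by 0.57 (SE 0.16), and the phloem genes SEOR1 and CALS7 rose by 1.35 (SE 0.10) and 0.75 (SE 0.18). The phloem sum went from 50.7 to 52.3 CPM under mock to 67.6 to 75.5 CPM under Zeocin. For xylem the sum went from 29.7 to 32.5 CPM under mock to 40.1 to 40.5 CPM under Zeocin. Their part in the results above was not tested. Of 6 root hair genes 1 fell, EXPA18. Stomatal lineage genes had 0 of 5 called, while 2 had an unadjusted edgeR p under 0.05 (list median -0.24). Seed storage genes summed to 0.316 to 0.872 CPM under mock and 1.07 to 1.23 CPM under Zeocin, and the floral gene AP1 had 0 counts in all 6 libraries.

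The difference between the WT response and that of pot1b seedlings was tested as an interaction, the log2 change in pot1b less the log2 change in the WT. It was called for 144 genes, 0.742% of those tested, and 71 of these were also called in the WT alone. Of the 71, 59 had an interaction opposite in sign to their WT change. The 71 were picked for a call in the WT, which favours large WT changes, so this count cannot show which genotype responded more. The count of 144 moved with single libraries: it was 416 without WT Zeocin replicate 1 and 55 to 83 without any one of WT mock replicates 1 to 3, pot1b mock replicates 1 to 3 or pot1b Zeocin replicates 1 and 2. GMI1 rose by 3.51 in the WT and by 2.50 in pot1b (interaction -1.02, SE 0.11). CBP60G rose by 0.91 in the WT and stood at -0.14 in pot1b (-1.05, SE 0.14). ADH1 fell by 1.62 in the WT, and its log2 change in pot1b was -0.55 (1.07, SE 0.13). Its mean was 48.5 CPM in WT mock and 25.2 CPM in pot1b mock, and 15.8 and 17.3 CPM under Zeocin. RNR1 rose by 1.97 in the WT and by 2.59 in pot1b (0.62, SE 0.10). These 4 kept the call in every alternative that gave them a value. BRCA1, TSO2, SMR7, PARP2 and XRI1 had interactions of 0.07 to 0.99, none of them called by edgeR.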

How the data were processed

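Total RNA of seedlings was depleted of ribosomal RNA and made into stranded libraries, per the labels' protocols. The authors used Trim Galore, HISAT2, featureCounts and limma with TAIR10, per the submitters' processing notes; tool versions, and whether counting used strand, are not given in the sources used here. The deposited tables hold raw read counts per gene, whole numbers with no normalization by the authors.

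Counts of all 12 libraries were fitted in 1 model of 4 groups with edgeR 4.0.16 (R 4.3.3), after filterByExpr (minimum count 10, 14666 features removed, 19596 left) and TMM scaling, with the robust quasi-likelihood F test and 8 residual degrees of freedom. Adjusted p is edgeR's, Benjamini-Hochberg over the 19596 features, called under 0.05. Levels are CPM, counts divided by the TMM-scaled library size, log2 changes carry their SE, and a group at 0 counts is set to a floor of 3 counts. Alternatives used DESeq2 1.42.0, limma 3.58.1, other scalings, filters, samples and each library left out. The scripts were tested on simulated data. Low counts limit precision: 3 counts are 0.119 to 0.316 CPM in a WT library.

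The members, gene lists and tests were chosen with earlier results of these data known. Named genes are the 15 largest rises and falls among called protein-coding genes with at least 5 CPM in the higher group. Only genes whose mock and Zeocin libraries did not overlap entered these rankings. Also named are the 8 called genes each way with most counts, the 5 and 3 largest non-coding rises and falls, and list members. The 5 largest interactions each way and the 6 highest genes with 0 to 3 mock counts complete them. List names were matched to the RefSeq gene table by symbol and synonym; 37 names without a single match were left out, and 33 others were settled by hand from that table, which the plan had not foreseen. Promoters were read from RefSeq TAIR10.1 by gene identifier, while the counts were made on TAIR10. The values of 1 called gene are not reported here.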

Additional observations from a re-analysis of the deposited data

Results flagged for a closer look

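The Zeocin response of 21 named genes differed between the WT and pot1b by the interaction test (edgeR adjusted p under 0.05, pot1b minus WT, log2). Among genes that rose in the WT, the difference was below 0 for AT3G60415 (-1.58), PPa2 (-1.42), CYP706A2 (-1.20), ACS7 (-1.19), AT1G09932 (-1.18), OM66, listed as BCS1 (-1.18), CBP60G (-1.05), GMI1 (-1.02) and CRK13 (-0.76). It was above 0 for CYP96A5 (1.27), AT2G30362 (0.64), RNR1 (0.62) and PLA2A (0.62), whose rise was larger in pot1b. Among genes that fell in the WT, the difference was above 0 for AT2G05510 (1.30), LBD25 (1.25), GRP9 (1.24), ADH1 (1.07), AT5G19890 (0.89), IAA2 (0.66), GH3.3 (0.56) and GH3.2, listed as BRU6 (0.45). In pot1b, PPa2 stood at -0.70, ACS7 at -0.48, CRK13 at -0.33, CYP706A2 at -0.17, CBP60G at -0.14 and AT1G09932 at -0.07. LBD25 stood at 0.28, GRP9 at 0.27, IAA2 at 0.11, GH3.2 at 0.08 and GH3.3 at 0.02. Each of these lay on the other side of 0 from its WT value. PPa2 overlaps AT2G18220, and GMI1, ADH1 and AT2G30362 overlap other genes. In some of these genes the genotypes differed mainly without Zeocin. CYP96A5 averaged 7.59 CPM in WT mock and 2.70 CPM in pot1b mock, and 10.2 and 8.81 CPM under Zeocin. AT3G60415 averaged 1.08 and 3.81 CPM in mock, and 4.78 and 5.28 CPM under Zeocin. AT2G30362 differed under Zeocin instead, with 16.5 and 16.7 CPM in mock and 86.0 and 137 CPM under Zeocin.

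ADH1, GRP9, PLA2A, CYP96A5, AT3G60415, ACS7, RNR1, GMI1, OM66, CRK13, CBP60G and IAA2 kept the interaction call in every alternative that gave them a value. The others lost it without single libraries: AT5G19890 without 7 (adjusted p up to 0.0882), AT2G05510 without 9 (0.142), AT2G30362 without 5 (0.0821), LBD25 without 10 (0.192), PPa2 without 7 (0.115), CYP706A2 without 4 (0.0799), AT1G09932 without 10 (0.157), GH3.2 without 8 (0.134) and GH3.3 without 5 (0.0794).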

How the results depend on the processing

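The 653 genes that rose stayed within 1.5 times under every alternative. The 514 that fell became 224 with only the 6 WT libraries, and the 30 that fell at least 2-fold became 16 with DESeq2, 11 with a minimum count of 30 and 15 with only the 6 WT libraries. Leaving out single libraries gave 470 to 754 risen and 235 to 733 fallen genes, 255 to 283 and 16 to 35 at 2-fold, and 55 to 416 interactions. Of 132 called genes that are named or in a list, 91 were called in every alternative that gave them a value, 41 were not in at least 1, and 0 reversed. Genes under a filter, or that overlap others, had no value in some. The causes were not tested.

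With the replicate number as a block, 824 genes rose, 849 fell and 367 interactions were called. Deviations from the group means in same-numbered WT mock and WT Zeocin libraries correlated at 0.216, -0.017 and 0.360. Those of differently numbered libraries correlated at -0.345 to 0.138. Deviations sum to 0 within a group, so these values depend on each other and cannot settle whether the numbers pair libraries.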

Other observations

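Of 6760 pairs of neighbouring genes that could be tested, 7 had both members risen at least 2-fold. They include RNR1 (log2 1.97, SE 0.07) with EME1A (1.12, SE 0.31) and AT5G07610 (3.91, SE 0.17) with AT5G07620 (1.44, SE 0.19). SK9 and SK10, adjacent copies of the same family with 0 mock counts each, were at least 22.6-fold and 20.0-fold higher, and reads may be split between them. Of the 146 genes that rose at least 2-fold and lie in a tested pair, 9.59% had such a neighbour, against 1.97% of all genes in a tested pair.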
